A study of Danio rerio with 26 samples.

Results

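Pigment cell genes were read out in the skin of 26 male zebrafish, with 1 RNA-seq library per fish. The 35 genes were chosen by symbol as markers, enzymes, transporters, receptors and transcription factors of the 3 pigment cell classes of zebrafish skin. A symbol was matched ignoring case, and a capital orthologue symbol without the final a or b also counted. Of the 35 genes, 33 were found, 23 by their own symbol and 10 by the capital stem, and they held 36 of the 32105 identifiers in the count tables. Melanophore genes gave 17 identifiers, xanthophore genes 9, iridophore genes 8, and sox10 and bnc2, which belong to no single class, 1 each. The gene mreg had no identifier, and that of rab38 was in no count table. A further 5 symbols stood for 2 identifiers each (MITF, TYRP1, PAX7, EDNRB and ALX4), which could not be assigned to the a or b copy and are given by identifier.

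Every fish was treated with rotenone, which blocks complex I of the mitochondrial respiratory chain, so no untreated fish serve as a baseline. Fish aged 1 year, of strain AB JxTu, had it at 3.75 nM (n = 9) or 37.5 nM (n = 9). Fish aged 3 years, all at 37.5 nM (n = 8), were AB JxTu Tg(flk:mCherry), carrying a transgene with the flk promoter that the 1-year fish did not carry, so age and strain cannot be told apart. The 2 concentrations were deposited in separate count tables, so concentration and table cannot be told apart either. In every group the fish numbers of the sample titles fell into a low and a high run, of 12 and 14 fish altogether, and the labels give no reason for it. The total counts per fish ranged from 25454674 to 35162246.

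Zebrafish colour comes from black melanophores, yellow xanthophores and reflective iridophores, all derived from the neural crest. Melanophores make melanin in melanosomes, xanthophores store pteridines and carotenoids, and iridophores hold stacks of guanine crystals made by purine synthesis. The classes share lineage genes and exchange signals, and these contacts shape the adult stripes.

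All 3 classes were read in every fish. Their summed levels do not rank the classes, since they rest on 17, 9 and 8 identifiers and are not scaled by gene length. In CPM (counts scaled to a common library size, with TMM factors), the melanophore genes summed to between 76.9 and 157 with a median of 116, the xanthophore genes to between 67.6 and 170 with a median of 118, and the iridophore genes to between 50.8 and 195 with a median of 97.8. For each class the ranges of the 3 groups overlapped. Marker lists of 7 melanophore, 7 xanthophore and 10 iridophore identifiers had less even median sums, of 40.3, 116 and 177 CPM over all fish. By the runs of fish numbers, the iridophore sum at 3 years lay from 99.1 to 195 CPM in 4 fish of the low run and from 50.8 to 97.9 CPM in 4 of the high run, without overlap. For the 3 classes, the sums of the runs overlapped in every other case. The sum of SOX10 and BNC2 was apart between the low and high runs at 3 years (23.4 to 38.2 and 16.5 to 21.0 CPM). It was also apart, in the opposite order, at 1 year and 37.5 nM (15.5 to 23.1 and 23.2 to 51.9 CPM). The test between the runs at 3 years, given below, passed no member. In bulk skin, fewer cells of a type and less RNA per cell cannot be told apart. Pigment of the eye shares the melanophore genes. Of 10 eye identifiers, 7 averaged under 0.1 CPM, while RPE65 ENSDARG00000094752 and RPE65 ENSDARG00000054420 averaged 36.0 and 10.8 CPM.

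**Figure D1:**
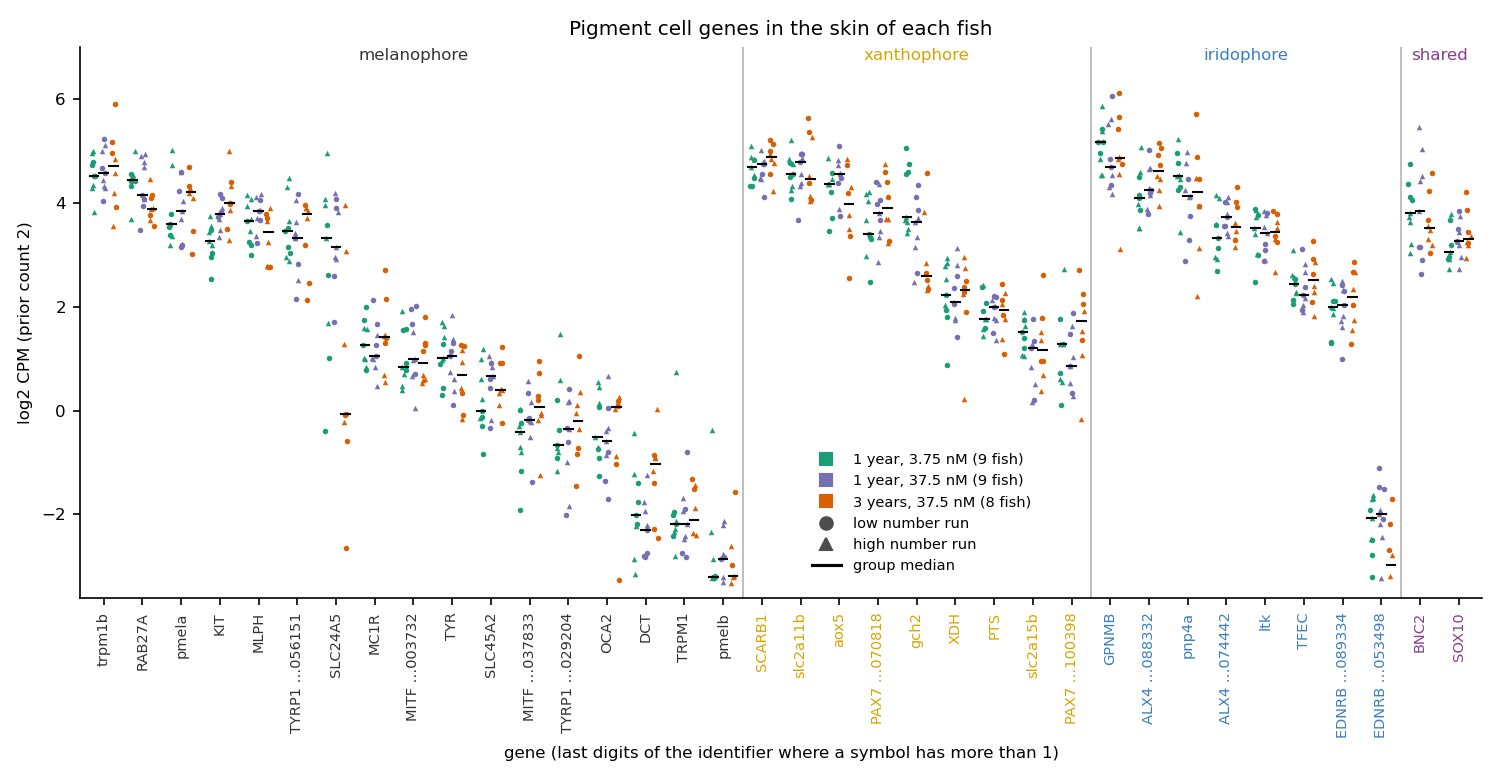
Level of each of the 36 identifiers in each fish, on the y axis as log2 CPM with a prior count of 2, and on the x axis by class and falling mean level. Colours mark the 3 groups, circles and triangles the low and high runs of fish numbers, and bars the group medians. All 36 identifiers overlapped between groups, and SLC24A5 spread the widest, from 0.0888 to 30.9 CPM.

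Per length, by the deposited RPKM, the highest members were RAB27A (13.7), pnp4a (12.1), SCARB1 (9.95) and slc2a11b (9.23), as means over the 26 fish. The lowest were pmelb (0.0390), TRPM1 (0.0430), EDNRB ENSDARG00000053498 (0.0960), OCA2 (0.132) and DCT (0.140). The scaling behind the RPKM was compared for a pair of libraries in each 1-year group, and for no others. There it did not follow the library totals and differed by up to 1.42-fold. Neighbours such as RAB27A and pnp4a are therefore not placed in order. Within melanin synthesis the RPKM levels were uneven: 5.93 for TYRP1 ENSDARG00000056151, 0.992 for TYR, 0.400 for TYRP1 ENSDARG00000029204 and 0.140 for DCT. The enzyme that catalyses the first step, tyrosinase (TYR), thus lay well under the melanosome fibril gene pmela, at 5.15 RPKM.

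Age was compared at 37.5 nM, over 9 fish of 1 year and 8 of 3 years. None of the 32 tested pigment identifiers passed edgeR's quasi-likelihood test with Benjamini-Hochberg adjustment over all genes at 0.05, where 1.27% of 18935 genes passed. DCT, pmelb, TRPM1 and EDNRB ENSDARG00000053498 were too low to be tested. There were 3 of the 32 members with an unadjusted p under 0.05, beside 3855 of the 18935 genes. The smallest adjusted p among the members was 0.213. With DESeq2, which called 5.51% of genes, 1 member passed: DCT, dopachrome tautomerase, with a log2 fold change of 1.58 ± 0.52 (SE, adjusted p = 0.0445) and group medians of 0.132 CPM at 1 year and 0.417 CPM at 3 years. The log2 fold changes, 3 years minus 1 year, were positive for 22 members and negative for 10, with a median of 0.14 against 0.03 over all genes tested. They ran from -1.54 for SLC24A5 to 0.74 for PAX7 ENSDARG00000100398. Over all genes tested, 53.4% were positive. By run, 24 of 32 members were positive in the low run alone (median 0.31) and 14 of 33 in the high run alone (median -0.07). A list of skeletal muscle markers was also positive for age in 8 of 10 tested identifiers, with a median of 1.14. With the mean of that list as a term, 17 of 32 members were positive, with a median of 0.06.

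Concentration was compared at 1 year, over 9 fish each. Again none of 32 members passed edgeR's test, which called 4.28% of 18793 genes. For 3 of the 32 members the unadjusted p was under 0.05, beside 4311 of the 18793 genes. The smallest adjusted p was 0.0586, for KIT, the receptor tyrosine kinase on which melanophores depend for migration and survival. DESeq2, calling 8.87% of genes, passed KIT alone (log2 fold change 0.49 ± 0.15, adjusted p = 0.0232). Fold changes, 37.5 nM minus 3.75 nM on the log2 scale, were positive for 14 members and negative for 18, with a median of -0.02 against -0.01 over all genes. They lay between -0.65 for gch2 and 0.50 for KIT.

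**Figure D2:**
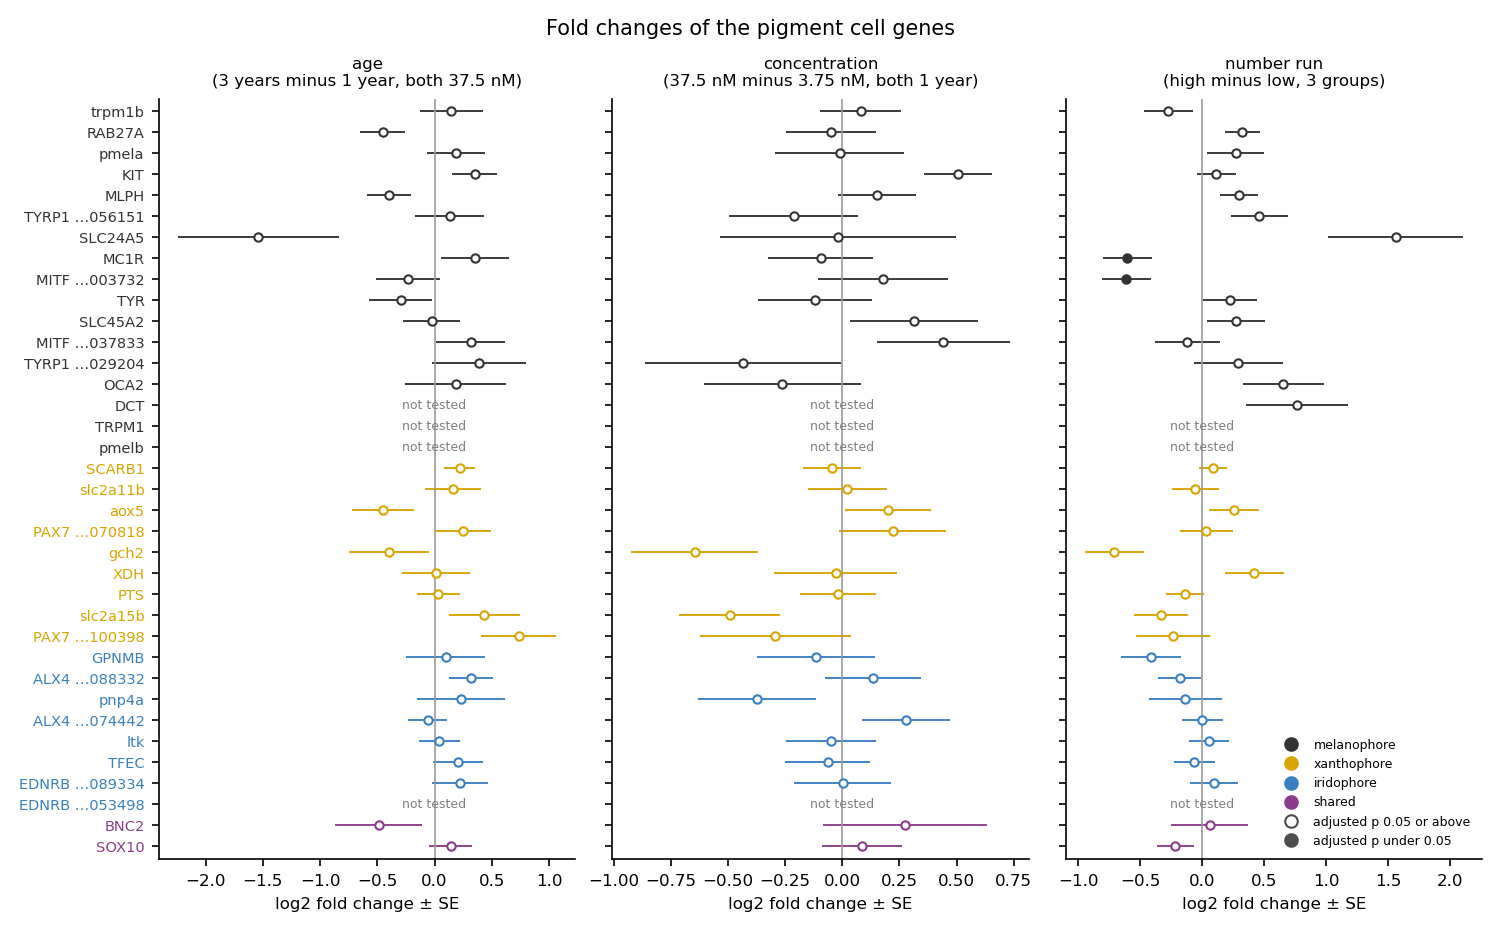
Log2 fold change with its SE for each identifier between ages, between concentrations and between runs of fish numbers, from edgeR's quasi-likelihood fits over 17, 18 and 26 fish. Filled points have an adjusted p under 0.05; the x axes differ in range. MC1R and MITF ENSDARG00000003732, both lower in the high run, are the filled points.

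Among the melanophore genes, the 3 with the highest counts were trpm1b, RAB27A and pmela. The ion channel gene trpm1b had a lowest, median and highest level of 14.04, 22.9 and 32.0 CPM at 1 year and 3.75 nM. At 37.5 nM these were 16.4, 23.7 and 37.3 CPM at 1 year and 11.6, 26.2 and 59.8 CPM at 3 years. The 3-year fish held both the lowest and the highest trpm1b level of the series, and no pair of groups was apart. Its log2 fold change was 0.15 ± 0.27 for age (adjusted p = 0.794) and 0.08 ± 0.18 for concentration (adjusted p = 0.833).

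RAB27A, which tethers melanosomes to the transport machinery, ranged from 12.9 to 31.8 CPM with a median of 21.6 at 3.75 nM. At 37.5 nM the range was 11.1 to 30.8 with a median of 17.7 at 1 year, and 11.7 to 21.8 with a median of 14.7 at 3 years. The groups overlapped, although the 3-year maximum lay under the maxima of both 1-year groups. Its age difference was -0.45 ± 0.20 on the log2 scale and did not pass (adjusted p = 0.213). Its partner MLPH, melanophilin, had a similar age difference of -0.40 ± 0.19 (adjusted p = 0.251). RAB27A is also used outside pigment cells.

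The gene pmela encodes the protein of the melanosome's fibrils. It ranged from 9.02 to 32.4 CPM with a median of 12.01 at 3.75 nM, from 8.74 to 24.2 with a median of 14.2 at 1 year and 37.5 nM, and from 7.98 to 25.7 with a median of 18.5 at 3 years. All groups overlapped, with log2 fold changes of 0.19 ± 0.25 for age (adjusted p = 0.701) and -0.01 ± 0.28 for concentration (adjusted p = 0.988).

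The remaining melanophore genes, named here after their values were seen, included the widest spread of all members. SLC24A5, the exchanger behind the golden phenotype, ranged from 0.693 to 30.9 CPM at 3.75 nM, from 3.17 to 18.1 at 1 year and 37.5 nM, and from 0.0888 to 15.5 at 3 years, with medians of 9.96, 8.76 and 0.878 CPM. At 3 years, 6 of its 8 values lay under the lowest 1-year value at 37.5 nM. Its SD between fish within groups was 1.61 on the log2 CPM scale, at the 97.6 percentile of 17135 genes with a mean of at least 1 CPM, where the median gene had 0.41. The age difference of -1.54 ± 0.70 did not pass (adjusted p = 0.229). Among edgeR's fits without 1 fish, it passed only without replicate 6 of the 3-year fish, at -2.42 and an adjusted p of 0.0485. That fish held the highest SLC24A5 level at 3 years (15.5 CPM), and the fit without it called 3.74% of all genes. Of the other melanosome transporters, SLC45A2 had medians of 1.52 and 1.25 CPM at 1 and 3 years, and OCA2 of 0.599 and 0.971 CPM.

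KIT had levels of 5.74, 9.56 and 13.3 CPM (lowest, median, highest) at 3.75 nM, 10.1, 13.6 and 17.9 CPM at 1 year and 37.5 nM, and 9.67, 15.8 and 31.9 CPM at 3 years. The groups overlapped, and the concentration difference of 0.50 ± 0.15 was just short of the threshold. With the number run as a term, which called 7.59% of genes, it passed with 0.51 ± 0.15 (adjusted p = 0.0471). Leaving out 1 fish brought KIT past the threshold in 3 of 18 fits, those without replicate 8 at 37.5 nM or without replicate 5 or 9 at 3.75 nM, with adjusted p-values of 0.0476, 0.0499 and 0.0290. These 3 fits called 3.87%, 5.55% and 8.79% of all genes. Its ligand gene kitlga had medians of 34.8 and 43.0 CPM at 3.75 and 37.5 nM, a difference of 0.26 ± 0.13 that did not pass (adjusted p = 0.227).

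Xanthophore genes were led by SCARB1, slc2a11b and aox5. SCARB1, a scavenger receptor that takes up carotenoids, was the steadiest member, with an SD of 0.28 on the log2 CPM scale within groups. Its levels were 19.9, 25.6 and 34.3 CPM (lowest, median, highest) at 3.75 nM, 17.3, 26.9 and 32.2 at 1 year and 37.5 nM, and 18.7, 29.5 and 36.8 at 3 years. The ranges nearly coincided, and the log2 fold changes were 0.22 ± 0.14 for age (adjusted p = 0.367) and -0.05 ± 0.13 for concentration (adjusted p = 0.870).

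The transporter gene slc2a11b, needed for mature yellow pigment cells in medaka, had levels of 16.8, 23.4 and 36.9 CPM at 3.75 nM, of 12.7, 27.3 and 31.2 at 1 year and 37.5 nM, and of 16.3, 21.8 and 49.6 at 3 years. These overlapped, with 0.16 ± 0.25 for age (adjusted p = 0.735) and 0.02 ± 0.17 for concentration (adjusted p = 0.959). For aox5, an aldehyde oxidase used as a xanthophore marker, the levels were 10.98, 20.4 and 28.9 CPM, then 13.3, 23.4 and 34.2, then 5.76, 15.8 and 28.5 in the same order of groups. Its 3-year values reached lowest but overlapped the others, with -0.45 ± 0.27 for age (adjusted p = 0.345) and 0.20 ± 0.19 for concentration (adjusted p = 0.567).

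Of the pteridine enzymes, gch2, GTP cyclohydrolase at the entry of the pathway, had medians of 13.2 CPM at 3.75 nM, 12.4 at 1 year and 37.5 nM and 5.92 at 3 years. Its ranges of 10.6 to 33.4, 5.48 to 20.2 and 4.95 to 23.7 CPM overlapped, and neither difference passed (concentration -0.65 ± 0.28, adjusted p = 0.169, and age -0.40 ± 0.35, adjusted p = 0.535). PTS and XDH, enzymes that act on pteridines after it, had log2 fold changes between -0.03 and 0.03 in both comparisons. The xanthophore regulators of the PAX7 family differed by 0.25 ± 0.24 (PAX7 ENSDARG00000070818) and 0.74 ± 0.33 (PAX7 ENSDARG00000100398) for age, with adjusted p-values of 0.590 and 0.220.

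Iridophore genes were led by GPNMB, ALX4 ENSDARG00000088332 and pnp4a. GPNMB, a membrane glycoprotein of pigment organelles, had levels of 23.1, 35.9 and 58.4 CPM (lowest, median, highest) at 3.75 nM, 17.9, 25.6 and 66.7 at 1 year and 37.5 nM, and 8.53, 29.1 and 68.9 at 3 years. The groups overlapped, and the differences were 0.10 ± 0.35 for age (adjusted p = 0.900) and -0.12 ± 0.26 for concentration (adjusted p = 0.836). The transcription factor gene ALX4 ENSDARG00000088332 had 11.4, 17.0 and 33.6 CPM, then 13.7, 18.9 and 32.3, then 15.3, 24.5 and 35.6, in the same order. Its log2 fold changes were 0.32 ± 0.19 for age (adjusted p = 0.346) and 0.13 ± 0.21 for concentration (adjusted p = 0.753).

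The enzyme gene pnp4a, a purine nucleoside phosphorylase of guanine synthesis, had levels of 10.8, 22.9 and 37.3 CPM at 3.75 nM, of 7.26, 17.5 and 31.5 at 1 year and 37.5 nM, and of 4.52, 18.6 and 52.5 at 3 years. The 3-year fish again held both extremes, and 0.23 ± 0.39 for age (adjusted p = 0.764) and -0.37 ± 0.26 for concentration (adjusted p = 0.414) did not pass. The receptor gene ltk and the transcription factor gene TFEC stayed within 5.51 to 14.7 CPM and 3.46 to 9.59 CPM over all fish. All 7 tested iridophore members had log2 fold changes between -0.06 and 0.32 for age.

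Both genes outside the single classes are transcription factor genes. SOX10, which neural crest cells need for every pigment lineage and which glia also use, had levels of 6.58, 8.22 and 13.6 CPM at 3.75 nM, of 6.52, 9.58 and 14.2 at 1 year and 37.5 nM, and of 7.55, 9.77 and 18.3 at 3 years. These overlapped, with differences of 0.14 ± 0.19 for age (adjusted p = 0.692) and 0.09 ± 0.18 for concentration (adjusted p = 0.819). BNC2, basonuclin, acts for zebrafish stripes in the tissue around the pigment cells. Its levels were 8.12, 13.8 and 26.8 CPM at 3.75 nM, 6.08, 14.2 and 44.1 at 1 year and 37.5 nM, and 8.08, 11.4 and 23.7 at 3 years. Pooled over the runs, its differences between ages (-0.49 ± 0.38, adjusted p = 0.477) and concentrations (0.27 ± 0.36, adjusted p = 0.699) did not pass.

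Between the low and high runs of fish numbers, with group as a term, 2 of 33 tested members passed edgeR's test against 13.4% of 20482 genes, a smaller share. Both are melanophore genes and both were lower in the high run. The xanthophore gene gch2, also lower there (-0.71), was just short of the threshold (adjusted p = 0.0501). So was the melanophore gene SLC24A5, higher in the high run (1.56, adjusted p = 0.0566). MITF ENSDARG00000003732, one of the genes for the melanophore master regulator, ranged from 1.56 to 3.97 CPM with a median of 2.64 in the low run. In the high run it ranged from 0.958 to 3.71 CPM with a median of 1.53. The runs overlapped over all fish, and at 3 years they did not, with 2.14 to 3.40 against 1.37 to 1.53 CPM. The log2 fold change was -0.61 ± 0.20 (adjusted p = 0.0414).

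MC1R, the melanocortin receptor that governs background adaptation and melanin synthesis, ranged from 1.66 to 6.44 CPM with a median of 2.84 in the low run and from 1.32 to 2.92 with a median of 1.94 in the high run. The runs overlapped, and the log2 fold change was -0.60 ± 0.20 (adjusted p = 0.0420). Both calls were close to the threshold: over 26 fits without 1 fish, the adjusted p ran from 0.00358 to 0.0760 for MITF ENSDARG00000003732, which passed in 8, and from 0.0226 to 0.0858 for MC1R, which passed in 10. Those 26 fits called 9.39% to 17.2% of all genes. Further members passed in 1 or more of them: gch2, SLC24A5 and RAB27A, with smallest adjusted p-values of 0.0199, 0.0386 and 0.0486. With the mean of the skeletal muscle list as a term, which called 16.2% of genes, the differences were -0.55 ± 0.20 for MITF ENSDARG00000003732 and -0.54 ± 0.20 for MC1R and neither passed (adjusted p = 0.0601 and 0.0611). SLC24A5 was the 1 member that passed in that fit, higher in the high run by 1.30 ± 0.42 (adjusted p = 0.0364). DESeq2, calling 17.6% of genes, passed both and also SLC24A5 (1.59 ± 0.48 higher in the high run, adjusted p = 0.0112) and gch2 (-0.72 ± 0.24, adjusted p = 0.0234). Other melanophore genes leaned the other way, and 11 of the 15 tested were higher in the high run, with a median log2 fold change of 0.27 against 0.03 over all genes.

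Markers of other skin cells were also compared between the runs. All 8 identifiers of the dermal fibroblast list were higher in the high run and 5 of them passed, beside 6.85% of all genes passing in that direction. Their summed level ranged from 1405 to 16580 CPM in the low run and from 3963 to 47320 CPM in the high run. The keratinocyte list summed to 19240 to 52320 CPM in the low run and 22960 to 56930 CPM in the high run, and the skeletal muscle list to 2939 to 44790 and 2473 to 24910 CPM. No identifier of these 3 lists averaged under 0.1 CPM. The part of the fibroblast and keratinocyte lists in the run differences was not tested.

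**Figure D3:**
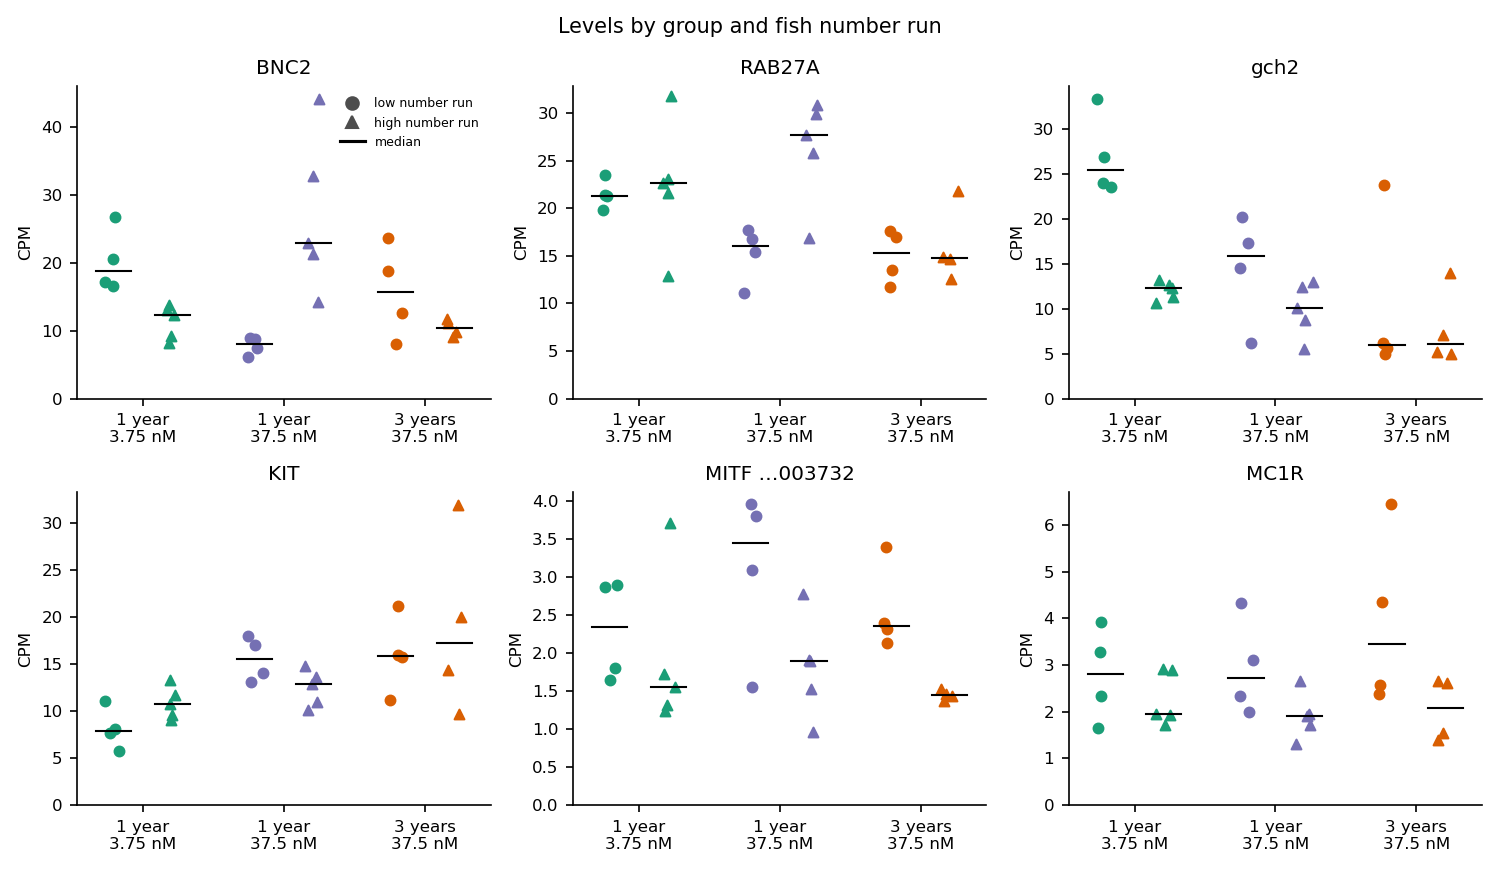
CPM of BNC2, RAB27A, gch2, KIT, MITF ENSDARG00000003732 and MC1R by group, with circles for the low and triangles for the high run of fish numbers and bars for the medians (4 or 5 fish each); the y axes start at 0 and differ in range. BNC2 was higher in the low run at 3.75 nM and higher in the high run at 1 year and 37.5 nM.

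The concentration difference of BNC2 turned around between the runs. In the low run its 4 fish at 3.75 nM ranged from 16.6 to 26.8 CPM with a median of 18.9, and its 4 fish at 37.5 nM from 6.08 to 8.85 CPM with a median of 8.09. In the high run the 5 fish at 3.75 nM ranged from 8.12 to 13.8 CPM with a median of 12.3, and the 5 fish at 37.5 nM from 14.2 to 44.1 CPM with a median of 22.9. The concentrations did not overlap in either run, and the order was opposite. The interaction of concentration and run, that is, the high-run difference minus the low-run difference, was 2.65 ± 0.39 on the log2 scale (adjusted p = 0.00333). BNC2 was the only 1 of 32 tested members to pass it, a smaller share than the 6.4% of all genes that passed. In all 18 fits without 1 fish it passed, with values from 2.398 to 2.814 and adjusted p-values from 0.00122 to 0.0109. Those 18 fits called 3.34% to 9.62% of all genes.

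Between concentrations, the dermal fibroblast list moved in the same directions within each run. Its median summed level was 9049 CPM at 3.75 nM and 2090 CPM at 1 year and 37.5 nM in the low run, and 32150 and 42810 CPM in the high run, with ranges that overlapped in both runs. Between the runs, the median of the list was higher in the high run in all 3 groups (4089 and 13430 CPM at 3 years). BNC2 was higher in the high run only at 1 year and 37.5 nM. For the interaction, all 8 identifiers of the dermal fibroblast list had a positive value, with a median of 0.72, and none passed (smallest adjusted p = 0.530). All 10 tested identifiers of the skeletal muscle list were positive too, with a median of 1.09, and none passed. The part of these lists in the BNC2 difference was not tested.

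Within single runs the concentration calls differed in number. In the low run alone (4 against 4 fish), 26.7% of genes passed and 4 of 32 members did so, a smaller share. KIT (0.92 ± 0.20, adjusted p = 0.0103) and PAX7 ENSDARG00000070818 (0.87 ± 0.23, adjusted p = 0.0218) were higher at 37.5 nM. RAB27A (-0.51 ± 0.15, adjusted p = 0.0337) and BNC2 (-1.39 ± 0.19, adjusted p = 0.00109) were lower. For KIT the 4 fish at 3.75 nM lay between 5.74 and 11.1 CPM and the 4 at 37.5 nM between 13.1 and 17.9 CPM, without overlap. In the high run alone (5 against 5 fish), edgeR called 0% of genes, with 995 under an unadjusted p of 0.05, and no member, with 2 under that p. The concentration by run interaction of KIT was -0.72 ± 0.25 and that of PAX7 ENSDARG00000070818 -1.10 ± 0.41. Neither passed edgeR's test (adjusted p = 0.101 and 0.123), so these differences are not shown to differ between the runs. Among fits without 1 fish, KIT passed without replicate 4 at 3.75 nM (-0.85, adjusted p = 0.0483). PAX7 ENSDARG00000070818 passed without replicate 5 at 37.5 nM (-1.34, adjusted p = 0.0478). These fits called 5.06% and 5.85% of all genes.

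Within single groups, the runs were compared again. At 3.75 nM, where 8.24% of genes passed, gch2 was lower in the high run, with 23.5 to 33.4 CPM in 4 fish of the low run and 10.6 to 13.2 CPM in 5 fish of the high run (-1.18 ± 0.15, adjusted p = 0.00745). These did not overlap, and 33.4 CPM was the highest gch2 level of the series. BNC2 was lower as well (-0.85 ± 0.21, adjusted p = 0.0389). The summed keratinocyte list was apart there too, from 40740 to 52320 CPM in the low run and from 22960 to 31340 CPM in the high run, and its part was not tested. At 1 year and 37.5 nM, where 7.94% passed, RAB27A (0.80 ± 0.20, adjusted p = 0.0414) and BNC2 (1.81 ± 0.31, adjusted p = 0.0167) were higher in the high run. RAB27A had 11.1 to 17.7 CPM there in the low run and 16.9 to 30.8 CPM in the high run. At 3 years 0% of genes passed edgeR's test, with 2204 under an unadjusted p of 0.05, and no member, with 9 under that p.

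The interaction of age and run gave 0% of genes past edgeR's test, with 3138 under an unadjusted p of 0.05. DESeq2 called 3.49% of genes and 3 members. These were BNC2 (-2.41 ± 0.48, adjusted p = 0.000423), SLC24A5 (3.31 ± 1.00, adjusted p = 0.0359) and pnp4a (-2.02 ± 0.64, adjusted p = 0.0493). By edgeR, BNC2 had -2.43 ± 0.46 (adjusted p = 0.0732), and it passed in 2 of 17 fits without 1 fish, those without replicate 1 at 3 years (-2.53, adjusted p = 0.0327) or replicate 7 at 1 year (-2.59, adjusted p = 0.0427). These 2 fits called 1.14% and 0.0584% of all genes. For SLC24A5 the 4 low-run fish lay between 3.17 and 16.8 CPM at 1 year and between 0.0888 and 0.884 CPM at 3 years, without overlap. In the high run they lay between 7.50 and 18.1 CPM at 1 year and between 0.786 and 15.5 CPM at 3 years, with overlap. All 7 tested iridophore members had a negative interaction by edgeR, from -2.05 to -0.23, and none passed. Markers of other cells moved beside these values, although none passed either: all 10 tested skeletal muscle identifiers were negative with a median of -3.34, all 8 dermal fibroblast identifiers were negative with a median of -1.30, and all 7 keratinocyte identifiers were positive with a median of 0.56. Their part in the member values was not tested.

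Levels were then compared between genes across fish. Group means were removed from the log2 CPM, and correlations were tested by permuting fish within groups, 100000 times. Over 26 fish, both runs of a group were permuted together. These p-values therefore do not separate shifts between the runs from differences among fish of a run. Of 11 pairs chosen for their biology, 5 passed in r with adjustment over the 11 pairs. The melanosome pair pmela and TYRP1 ENSDARG00000056151, a melanin enzyme gene, had Pearson's r = 0.90 and Spearman's rho = 0.89 over 26 fish (adjusted p = 0.00011, from the smallest p these permutations can give), and r = 0.88 without the 2 fish farthest from the median of pmela. With TYRP1 ENSDARG00000029204, r was 0.81 and rho 0.75 (adjusted p = 0.00011 and 0.00033 by permutation), and 0.78 without 2 fish. The iridophore pair pnp4a and TFEC had r = 0.69 and rho = 0.61 (adjusted p = 0.00136 and 0.00972 by permutation), and 0.54 without 2 fish.

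The pair of pnp4a and ltk had r = 0.44 and rho = 0.55 (adjusted p = 0.0450 and 0.0130 by permutation), and without 2 fish its r of 0.42 no longer passed (adjusted p = 0.0737). Across classes, pmela and SOX10 had r = 0.61 and rho = 0.48 (adjusted p = 0.00459 and 0.0374 by permutation), and 0.56 without 2 fish. The pairs of pmela with gch2 (r = 0.27) and with pnp4a (0.16), and of gch2 with pnp4a (0.26), which set the 3 classes against each other, did not pass, with adjusted p-values from 0.295 to 0.467 by permutation. Their r differed in size between the runs without passing in either: pmela with pnp4a had 0.82 in the low run (adjusted p = 0.0532 by permutation) and -0.070 in the high run, pmela with gch2 0.72 and 0.24, and gch2 with pnp4a 0.34 and 0.55. The xanthophore pairs of gch2 with aox5 (0.25) and XDH (0.02) did not pass either. Within runs, the pair of pmela and TYRP1 ENSDARG00000056151 had r = 0.90 in the low and 0.95 in the high run, and the pair of pnp4a and TFEC 0.86 and 0.75.

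Of the 11 pairs, 6 did not pass in r, and DCT with pmela was nearest, with r = 0.43 and rho = 0.47 (adjusted p = 0.0695 and 0.0386 by permutation). All pairs of the 29 identifiers with a mean of at least 1 CPM were then computed. Of these 406 pairs, 132 had a positive r past the threshold adjusted over all 406, and none a negative one. The median r was 0.36, against -0.01 over all 146795545 pairs of the 17135 genes at that level. An r of at least 0.6 was found in 19.2% of the pigment pairs and 3.4% of all pairs. All such values share libraries, and the genes of a pair share their depth and tissue makeup. Within classes the median r was 0.58 for iridophore, 0.47 for xanthophore and 0.28 for melanophore pairs, and between classes it was 0.35 to 0.36.

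**Figure D4:**
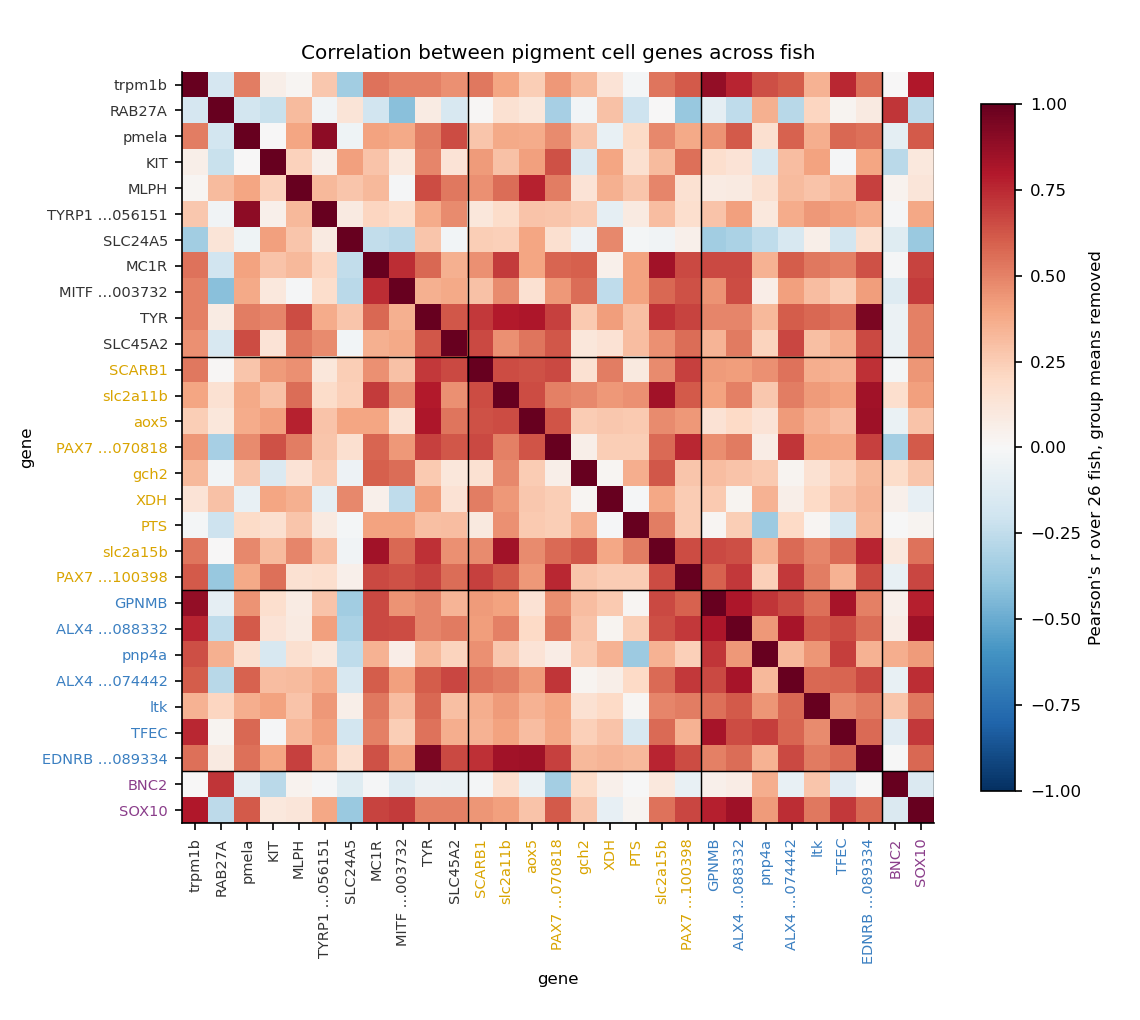
Pearson's r of log2 CPM between the 29 identifiers with a mean of at least 1 CPM, over 26 fish with group means removed, ordered by class (black lines) and falling level; red is positive and blue negative on a scale from -1 to 1. Most cells are red, while the rows of BNC2, RAB27A and SLC24A5 stay mostly pale or blue, apart from the pair of BNC2 and RAB27A (r = 0.71).

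Pairs did not always follow the class names. The highest r, 0.94 (rho = 0.94, 0.93 without 2 fish), joined TYR, the first enzyme of melanin synthesis, with EDNRB ENSDARG00000089334, an endothelin receptor gene counted as iridophore. TYR also followed the xanthophore genes aox5 (r = 0.81) and slc2a11b (0.80), and EDNRB ENSDARG00000089334 followed the same genes (0.85 and 0.84). The channel gene trpm1b, counted as melanophore, followed GPNMB (0.88) and SOX10 (0.80), and MC1R followed slc2a15b (0.84). Each of these had an adjusted p of 0.00029 or 0.000507 by permutation over 406 pairs.

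Within the melanophore list SLC24A5 stood alone, since none of its pairs passed, and its highest r was 0.48, with XDH. BNC2 passed with a single partner, RAB27A (r = 0.71, rho = 0.72, adjusted p = 0.00464 by permutation), with 0.64 without 2 fish and 0.86 and 0.56 in the low and high runs. KIT passed with both PAX7 identifiers, ENSDARG00000070818 (r = 0.64) and ENSDARG00000100398 (0.55). With number run, skeletal muscle or dermal fibroblast list means also removed, the median r over 406 pairs was 0.40, 0.38 and 0.36.

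**Figure D5:**
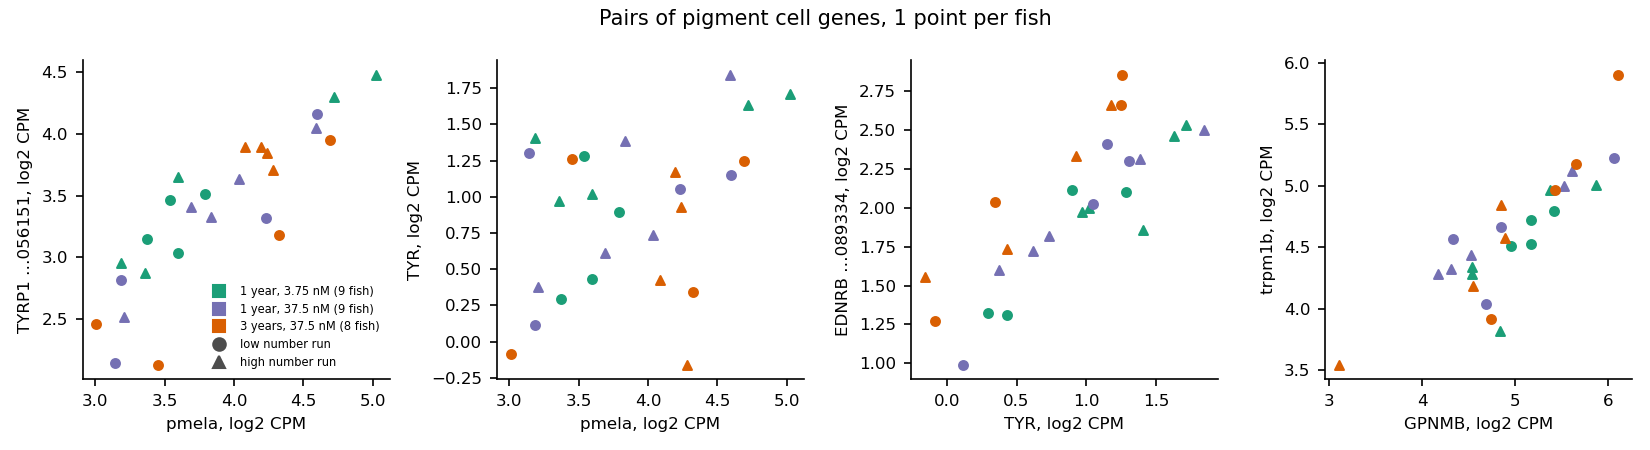
Log2 CPM of 4 gene pairs, with 1 point per fish, colours for the groups and circles and triangles for the low and high runs. TYR rises with EDNRB ENSDARG00000089334 (r = 0.94 with group means removed), pmela with TYRP1 ENSDARG00000056151 (0.90) and trpm1b with GPNMB (0.88), and TYR is more loosely tied to pmela.

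A wider list of 132 genes of pigment cell ligands, receptors, pterin and purine synthesis, carotenoid handling, melanosome traffic, lineage and pattern was matched for 115 genes with 123 identifiers. None of the 100 tested passed edgeR's test for age, beside 1.27% of all genes. For concentration 1 of 99 passed, a smaller share than the 4.28% of all genes. It was IMPDH2, an enzyme of guanine nucleotide synthesis, lower at 37.5 nM (-0.92 ± 0.25, adjusted p = 0.0415 by edgeR's test). Its ranges of 18.6 to 62.2 and 14.8 to 37.0 CPM overlapped. The concentration difference of IMPDH2 also differed between the runs, as given below. Between the runs 18 of 105 passed, 12 higher and 6 lower in the high run, beside the 13.4% of all genes. By class, 0 of 16 lineage and 0 of 7 carotenoid identifiers passed. Higher in the high run were 3 of 26 for melanosome traffic, 2 of 9 for receptors, 1 of 13 for pattern and 1 of 11 for pterin synthesis. Lower were 1 of the pattern and 1 of the pterin identifiers. Ligands and purine synthesis are given below.

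Of 9 tested ligand genes, 4 passed between the runs, beside 13.4% of all genes. Of 3 genes for ligands of the Csf1 receptor, on which xanthophores depend, csf1b (0.90 ± 0.14, adjusted p = 0.000766) and csf1a (0.78 ± 0.23, adjusted p = 0.0285) were higher in the high run, and il34 differed by -0.02 ± 0.12 (adjusted p = 0.928). Ligands of the receptor Ltk moved apart: ALKAL2 was higher (0.88 ± 0.26, adjusted p = 0.0299) and alkal2b lower (-0.88 ± 0.26, adjusted p = 0.0295), while ltk itself differed by 0.06 ± 0.16. For alkal2b the runs had medians of 3.08 CPM (low) and 1.24 CPM (high), and for ALKAL2 0.692 and 1.22 CPM. The Kit ligand genes kitlga and kitlgb, edn3b and alkal1 did not pass, and pomcb and POMC, which encode the precursor of the Mc1r ligand, did not exceed 0.488 CPM in any fish.

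Of 14 tested purine synthesis identifiers, 5 passed between the runs, 2 higher and 3 lower in the high run, beside 13.4% of all genes. The log2 fold changes were positive for 3 and negative for 11, with a median of -0.29. IMPDH1 ENSDARG00000042336 was higher in the high run (1.63 ± 0.23, adjusted p = 0.000168), as was IMPDH1 ENSDARG00000029524 (0.34 ± 0.11, adjusted p = 0.0400). PAICS, PPAT and prps1b were lower (PPAT -0.98 ± 0.21, adjusted p = 0.00525). Other genes past the threshold were MPV17 (-0.71 ± 0.12), whose loss in zebrafish depletes iridophores, AQP3 (0.62 ± 0.11), the thyroid hormone receptor gene THRB (0.50 ± 0.12), the pterin enzyme gene SPR (0.90 ± 0.24) and the melanosome genes MFSD12 (0.41 ± 0.11) and bloc1s4 (0.39 ± 0.11), with adjusted p-values from 0.000766 to 0.0180. AQP3 and SPR each have another identifier, which was not called higher.

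For the interaction of concentration and run, 4 of 99 identifiers of the wider list passed, beside the 6.4% of all genes. KCNJ13, a potassium channel gene needed for zebrafish stripes, had -1.77 ± 0.32 (adjusted p = 0.00584). The purine synthesis genes IMPDH2 (1.60 ± 0.31, adjusted p = 0.00800), adssl (0.80 ± 0.22, adjusted p = 0.0419) and GMPS (0.73 ± 0.21, adjusted p = 0.0476) had positive values. None of the 100 tested passed the interaction of age and run, with 19 under an unadjusted p of 0.05, beside 3138 of 18935 genes.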

How the data were processed

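Libraries from total RNA of skin were made with Illumina's TruSeq v2 kit for RNA, per the labels' protocols. The submitters' processing notes name STAR 2.4.1d, featureCounts 1.4.6-p4, CASAVA 1.8.2 and the GRCz10 build; the strand setting of the counting is not given in the sources used here, so reads of a gene and of an antisense partner may not be told apart. The authors deposited raw counts per Ensembl gene, which all tests used, and RPKM values. In a pair of libraries of each 1-year group, the ratio of count to RPKM between them repeated every 50 rows. The scaling there thus did not follow the library totals. The deposited RPKM served only to order genes by level per length.

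Symbols came from a table of Ensembl names. The members and lists were chosen with earlier results of these data known. Counts of the compared groups were filtered with filterByExpr, scaled by TMM and fitted by edgeR 4.0.16 under R 4.3.3 (glmQLFit with robust estimation, then glmQLFTest), with Benjamini-Hochberg adjustment over all genes tested and a threshold of 0.05. The SE is the log2 fold change over the square root of F. Age and concentration had no covariate, number run had group, and the interactions had both. DESeq2 1.42.0 was an alternative. Levels are CPM with TMM factors over all 26 fish, and log2 CPM used a prior count of 2. Correlations used residuals after group means, permuted within groups. Of the pairs chosen, pmela with TYRP1 held 2 identifiers, which made 11 pairs. Values were given in full for members past the threshold and for the 3 members of each class, and each shared member, with the highest mean log2 CPM; other members were picked after their values were seen. From the wider list, genes past the threshold (at most 10 per comparison) and ligands of member receptors were named by rule, and csf1a, il34, prps1b and IMPDH1 ENSDARG00000029524 after their values were seen. The edgeR fits and the permutation of correlations were tested on simulated data, and DESeq2 was not. Fish are separate samples, numbered in order of deposition, which pairs no fish.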

Additional observations from a re-analysis of the deposited data

Results flagged for a closer look

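The concentration difference of BNC2 differed between the runs of fish numbers. The interaction was 2.65 on the log2 scale in edgeR's test (adjusted p = 0.00333), with the values by run given above. BNC2 was the only 1 of 32 tested members to pass, a smaller share than the 6.4% of all genes. The labels do not say what the runs are, and no cause was tested.

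Dixon's ratio was taken on log2 CPM in 87 sets of values (29 identifiers with a mean of at least 1 CPM in 3 groups). By it, 2 sets held a fish far from the others, while chance flags about 1 in 20. For XDH, xanthine dehydrogenase, replicate 5 of the 3-year fish, in the high run, had 1.1 CPM, and the next lowest fish of the group had 3.64 CPM. For slc2a11b, replicate 2 of the 1-year fish at 37.5 nM, in the low run, had 12.7 CPM, and the next lowest had 20.1 CPM.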

How the results depend on the processing

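With an alternative setting, the number of all genes past the threshold moved by over 1.5 times as follows. For age (241 genes) it was 1267 with DESeq2, 34 in the low run alone, 19 in the high run alone and 64 to 712 without 1 fish (712 without replicate 6 and 64 without replicate 8 of the 3-year and 1-year fish). For concentration (804 genes) it was 209 with no filter on low counts, 1862 with DESeq2, 1427 with number run as a term, 5024 and 0 in the low and high run alone, 18 with the muscle list mean added to the model and 0 to 1661 without 1 fish. For number run (2746 genes) it was 1513, 0 and 1581 within the 1-year 37.5 nM, 3-year and 3.75 nM groups. For the age by run interaction (0 genes) it was 689 with DESeq2 and 0 to 217 without 1 fish, and for concentration by run (1202 genes) 2008 and 632 to 1820.

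Members past the threshold, of 32 to 36 tested, are given with the share of all genes passing in brackets. For age they numbered 1 with DESeq2 (5.51%) and 0 to 1 without 1 fish (0.339% to 3.74%). For concentration they were 1 with DESeq2 (8.87%), 1 with run as a term (7.59%) and 4 in the low run alone (26.7%). Without 1 fish they were 0 to 1 (0% to 8.79%). For number run they were 1 with no filter (8.28%), 4 with DESeq2 (17.6%) and 1 with the muscle mean as a term (16.2%). At 3 years alone they were 0 (0%), and without 1 fish 0 to 4 (9.39% to 17.2%). For the age interaction they were 3 with DESeq2 (3.49%) and 0 to 1 without 1 fish (0% to 1.14%). For the concentration interaction they were 1 to 2 without 1 fish (3.34% to 9.62%). Of the 11 pairs, 2 passed in the low run alone.

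The age difference changed sign in the high run alone for ALX4 ENSDARG00000088332 (-0.052), GPNMB (-0.46), pnp4a (-0.82), trpm1b (-0.31), SOX10 (-0.064) and slc2a11b (-0.074). It did so in the low run alone for RAB27A (0.004) and BNC2 (1.05), with run as a term for GPNMB (-0.031), and with the muscle mean as a term for GPNMB (-0.22), pnp4a (-0.14), trpm1b (-0.16) and SOX10 (-0.035). The concentration difference changed sign in the low run alone for MC1R (0.058), pmela (0.34), BNC2 (-1.39) and SCARB1 (0.055), and in the high run alone for MITF ENSDARG00000003732 (-0.09), RAB27A (0.22), SOX10 (-0.060) and slc2a11b (-0.084). That of pmela was 0.006 with no filter, 0.019 with run as a term and 0.15 with the muscle mean, where GPNMB had 0.037. The run difference changed sign at 3.75 nM alone for ALX4 ENSDARG00000088332 (0.086), BNC2 (-0.85), SOX10 (0.065) and slc2a11b (0.22), at 1 year and 37.5 nM alone for pnp4a (0.79) and trpm1b (0.004), at 3 years alone for BNC2 (-0.62) and SCARB1 (-0.28), and with the muscle mean for pnp4a (0.097).

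Without 1 fish, age differences ran from -0.11 to 0.31 for GPNMB, -0.10 to 0.39 for pnp4a, -0.018 to 0.25 for slc2a11b and -0.11 to 0.26 for trpm1b. Concentration differences ran from -0.007 to 0.42 for BNC2, -0.32 to 0.002 for GPNMB, -0.15 to 0.036 for RAB27A, -0.11 to 0.018 for SCARB1, -0.13 to 0.18 for pmela, -0.047 to 0.11 for slc2a11b and -0.025 to 0.14 for trpm1b. Run differences ran from -0.10 to 0.16 for BNC2 and -0.13 to 0.032 for slc2a11b. The r of gch2 with XDH was -0.012 without 2 fish, and that of pmela with pnp4a -0.070 in the high run, -0.044 with the muscle and -0.067 with the fibroblast mean removed. The cause of these changes was not tested. The interaction alternatives and the pairs over all members were chosen after seeing the data. No paired analysis was possible because the fish numbers pair no fish between groups. Members under about 1 CPM, such as DCT, rest on few reads.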
